A study of Mus musculus with 4 samples.

Results

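Translation initiation factors are the proteins that bring the ribosome, the initiator tRNA and a capped mRNA together at a start codon. Their genes were examined in p53-deficient mouse embryonic fibroblasts with and without Med1, a subunit of the Mediator complex that links transcription factors to RNA polymerase II. Members were the probe sets whose gene symbol begins with Eif and a digit, leaving out the eIF2 kinase genes (Eif2ak) and the sex-linked eIF2 gamma genes Eif2s3x and Eif2s3y. This gave 90 of 22626 probe sets and 36 of 12393 named genes. A probe set is a group of short probes against one transcript, and 78 of the 90, covering 35 genes, passed the filter on dim signals. A further 5 probe sets whose annotation gives several symbols were left out, since no single gene can be named for them.

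The control cells were Med1+/+ p53-/- and the other cells Med1-/- p53-/-, so that both groups lacked p53. Both were fibroblasts of strain C57BL/6J, grown from embryos at embryonic day 10.0, whose fathers were Med1+/- p53-/- and mothers Med1+/- p53+/-. Total RNA was hybridised to 3'-biased Affymetrix arrays, 2 per genotype. Whether the paired arrays within each genotype trace to separate cultures or embryos is not stated. The p-values therefore reflect the spread among these samples alone, possibly technical, and effects of Med1 loss and of other differences between the cultures cannot be told apart. In whole-culture RNA, fewer cells of a type and less RNA per cell cannot be told apart.

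Initiation begins when eIF2 carries the initiator tRNA to the small ribosomal subunit, where eIF1, eIF1A, eIF3 and eIF5 help it to find the start codon. The eIF4 proteins bind the mRNA cap and unwind the leader, and eIF5B joins the large subunit. Cells adjust the rate chiefly through eIF2B, which recharges eIF2 with GTP and is blocked by phosphorylated eIF2, and the 4E-binding proteins, which hold the cap-binding protein eIF4E away from eIF4G until mTOR phosphorylates them.

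The deposited signals were linear, with array medians of 76.25 and 106.65 for Med1+/+ against 36.1 and 51.4 for Med1-/-. Medians of the control probe sets were not lower in Med1-/-, at 267.5 and 370.6 against 313.1 and 448.95. The source of the lower Med1-/- array medians was not tested. Signals were quantile normalized, and changes below are log2 differences of normalized signal, Med1-/- minus Med1+/+, and so relative to the bulk of genes. Med1 itself, on its brightest probe set, had deposited signals of 664.6 and 885.6 against 25.4 and 40.2, in the direction of the labels. Of 13 fibroblast and mesenchyme markers 12 passed the filter, with a summed normalized signal of 42582 to 45495 in Med1+/+ and 52135 to 55315 in Med1-/- cells, although Pdgfra (log2 change -2.95), Prrx1 (-2.89) and Dcn (-1.99) fell. Summed signals of the epithelial, muscle and neural marker lists also moved with genotype. They were 4705 to 4823 against 2313 to 2694 for 8 epithelial markers, of which Epcam, Cldn6 and Esrp1 were under the filter. Within that sum Krt19 rose by 1.61, whereas Cdh1 (-4.50), Krt18 (-4.45), Dsp (-3.92) and Krt8 (-1.96) fell. For 8 muscle markers, of which Myod1, Myog and Myh11 were under the filter, they were 10040 to 10200 against 21885 to 21887. Acta2, by far the brightest of these, rose by 0.70, Tnnt2 by 1.25, Des by 3.78, Cnn1 by 4.09 and Actg2 by 5.39. Deposited signals of the myogenic factor genes Myod1 and Myog were at most 25.6 and 15.8. Those of Myh11 were 5.9 and 3.8 against 35.7 and 48.9. Which cells the muscle sum reflects was not tested. For 6 neural markers the sums were 255 to 272 against 935 to 964, with Sox2, Map2, Sox10 and Pou3f2 under the filter. For 7 blood markers, of which only Csf1r passed the filter, they were 93.9 to 107 against 110 to 120. For 6 endothelial markers, of which only Kdr passed it, they were 67.4 to 79.1 against 79.2 to 118. Neither Csf1r nor Kdr was called (adjusted p = 0.0564 and 0.538, limma). The part of these marker lists in the results on initiation factors was not tested.

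With quantile normalization, the initiation factor genes did not move as a block. Taking each gene by its brightest probe set, 14 of 35 genes were higher in Med1-/- cells and 13 were lower, at an adjusted p under 0.05 (limma, Benjamini-Hochberg over 13576 probe sets). Among all 7874 named genes 74.9% were called, 39.5% higher and 35.4% lower. The initiation factor genes, with 77.1% called, were near that background, and the share is not a result about them. Counted by probe set, 30 of 78 were higher and 38 lower, where 71.6% of all probe sets were called; probe sets of 1 gene share a target and are not independent. Normalized signals of the genotypes did not overlap in 32 of the 35 genes (88.7% of all named genes) and 74 of the 78 probe sets (86.6% of all probe sets). The median log2 change was 0.07 over the 35 genes, beside 0.12 over all named genes, and -0.28 over the 78 probe sets, beside 0.04 over all probe sets. Single genes had extremes of 2.22 for Eif4ebp2 and -1.45 for Eif3e. At least a 2-fold difference was reached by 9 genes that rose and 8 that fell, where 21.8% and 19.1% of all named genes did so. By role, 2 of 3 repressors of eIF4E and 3 of 4 eIF2B genes were higher, 4 of 6 start codon factors were lower, and the eIF3 complex was divided. No test was made of a role as a group. Counts by role, here and below, stand beside 39.5% of all named genes called higher and 35.4% lower.

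**Figure D1:**
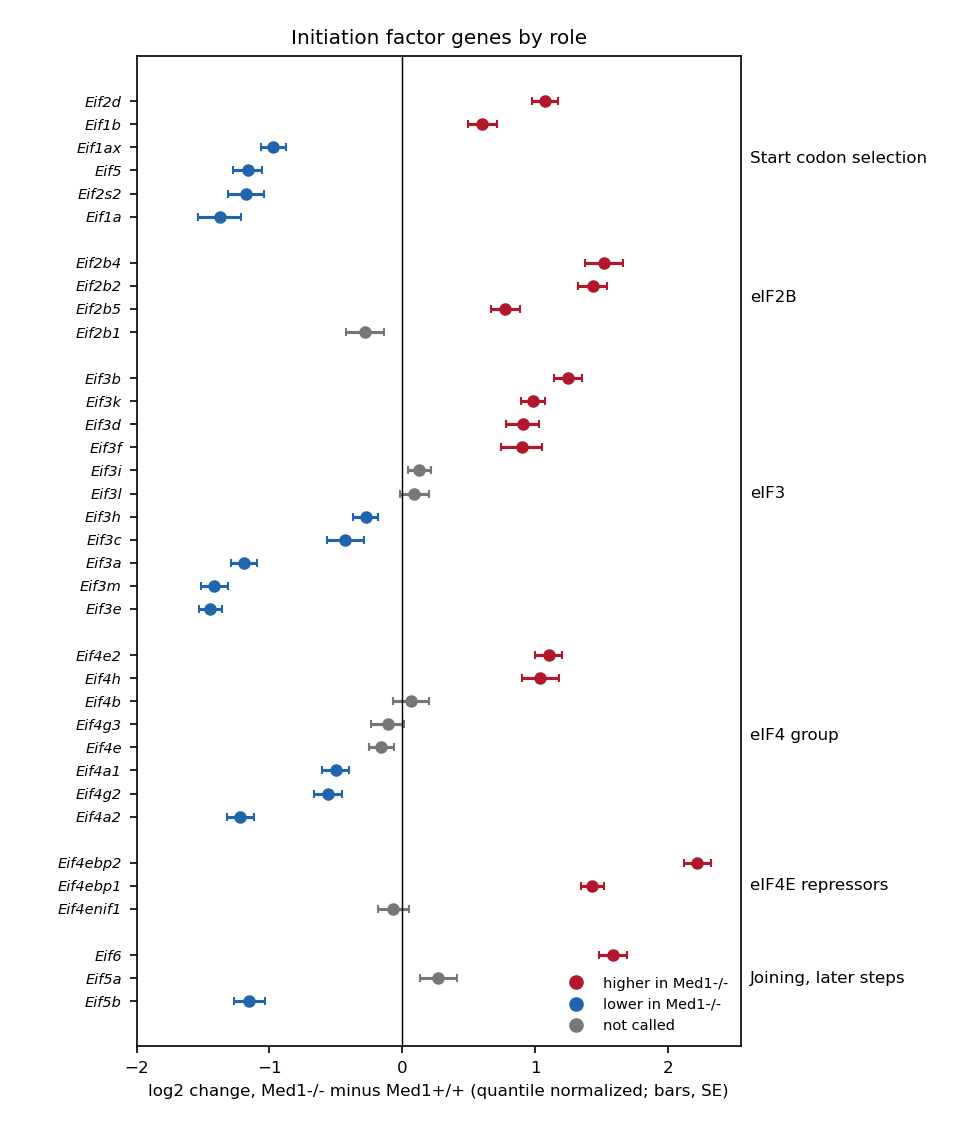
Log2 change between Med1-/- and Med1+/+ cells (x axis) of the 35 initiation factor genes past the filter, by role; points are the brightest probe set of each gene, bars its standard error (n = 2 arrays per genotype), colour the call. Eif4ebp2, Eif6, Eif2b4, Eif2b2 and Eif4ebp1 lie farthest to the right, and Eif3e, Eif3m and Eif1a farthest to the left.

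How the arrays are brought to a common level bears on every direction given here. In addition to quantile normalization, changes were computed with array medians set equal, with 75th percentiles set equal, and from the values as deposited. In that order the median change of all probe sets was 0.04, 0.22, 0.04 and -0.83, and the share of calls that were higher was 50.7%, 58.3%, 50.4% and 5.18%. Of the initiation factor genes, 14, 18, 17 and 3 were called higher and 13, 9, 9 and 13 lower, so their even split held only with quantile normalization. The median of the initiation factor genes lay 0.050 below that of all named genes with quantile normalization and 0.23 to 0.24 above it under the other scalings. Over probe sets, it lay below that of all probe sets under each of the 4, with differences of -0.31, -0.085, -0.088 and -0.098. The direction of such a shift therefore depended on the scaling and on whether genes or probe sets were counted. Called in the same direction under all 4 were 3 genes that rose, Eif4ebp1, Eif4ebp2 and Eif6, and 9 that fell, Eif1a, Eif1ax, Eif2s2, Eif5, Eif3a, Eif3e, Eif3m, Eif4a2 and Eif5b. Of all named genes 3.01% rose and 29.9% fell under all 4. The 11 other genes that rose were called under the 3 scalings that bring the arrays to a common level and lost the call in the values as deposited, where Eif1b (-0.15) and Eif2b5 (-0.051) turned negative. The falls of Eif3c, Eif3h, Eif4a1 and Eif4g2 were not called with either medians or 75th percentiles equal, and all 4 turned positive with medians equal (0.071 to 0.28).

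**Figure D2:**
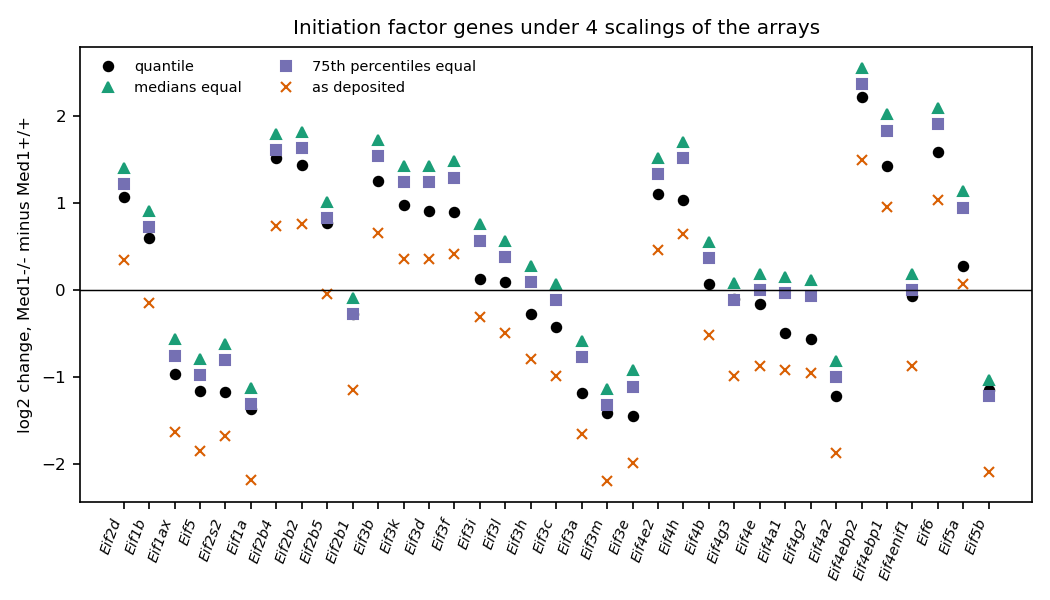
Log2 change (y axis) of each of the 35 genes under 4 ways of scaling the arrays, ordered by role. Values as deposited lie lowest for each gene, and Eif4ebp2, Eif4ebp1 and Eif6 keep clearly positive values under all 4.

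Among the factors that select the start codon, 4 genes fell and 2 rose. Eif2s2 encodes eIF2 beta, the subunit that contacts eIF5 and eIF2B. Its normalized log2 signal was 12.67 and 12.46 with Med1 against 11.54 and 11.24 without it, so the change was -1.18 (SE 0.13, n = 2 arrays per genotype; adjusted p = 0.000394, limma). The genotypes did not overlap, and 5 of its 6 probe sets were called lower. Eif5, the activator of GTP hydrolysis by eIF2, read 11.37 and 11.23 against 10.22 and 10.06 and fell by 1.16 (SE 0.11; adjusted p = 0.000206, limma), with all 4 of its probe sets called lower.

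Eif1a and Eif1ax encode near-identical forms of eIF1A, which helps scanning along the leader. Eif1a read 10.01 and 10.39 against 8.70 and 8.95, in the same order of genotypes (log2 change -1.37, SE 0.16; adjusted p = 0.000467, limma). Eif1ax, on the X chromosome, read 11.42 and 11.33 against 10.41 and 10.39 (-0.97, SE 0.09; adjusted p = 0.00023, limma). Both copies thus changed in one direction without overlap, but probes of one may catch transcripts of the other, so their separate changes are uncertain.

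The other genes of this role rose. Eif2d, a factor that can deliver tRNA to the ribosome without eIF2, read 9.61 and 9.60 against 10.62 and 10.73 (log2 change 1.07, SE 0.10; adjusted p = 0.000201, limma), and its 3 tested probe sets were all called higher. Eif1b, a close relative of the scanning factor gene Eif1, read 9.63 and 9.73 against 10.21 and 10.35 (0.60, SE 0.11; adjusted p = 0.00274, limma). In the deposited signals the genotypes overlapped for both genes. Eif1 itself and Eif2s1, the gene of eIF2 alpha, are not analysed here.

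The X-linked gene of the remaining eIF2 subunit, Eif2s3x, lies outside the member rule. It fell by 1.13 (SE 0.10; adjusted p = 0.000157, limma), from 11.75 and 11.73 to 10.67 and 10.54. Its Y-linked partner Eif2s3y had deposited signals of 0.6 and 5.1 against 0.6 and 0.2, and the Y-linked genes Kdm5d (at most 11.4) and Uty (at most 4.7) were likewise dim on every array. Xist, the RNA of the inactive X chromosome, was 6723.6 and 7499.6 against 211.2 and 159.6 in deposited signal, and the X-linked helicase gene Ddx3x fell by 1.28 (SE 0.09; adjusted p = 0.000102, limma). The part of the X chromosome in the values of Eif1ax was not tested.

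Apart from Eif2b1, the eIF2B genes moved the other way with quantile normalization. Eif2b4, the delta subunit gene, read 8.68 and 8.50 against 9.96 and 10.26 (log2 change 1.52, SE 0.14; adjusted p = 0.000201, limma). Eif2b2, the beta subunit gene, read 9.70 and 9.56 against 11.14 and 10.99 (1.43, SE 0.11; adjusted p = 0.00012, limma), and its other probe sets changed by 1.51 and 2.46. Delta and beta belong to the regulatory part of the complex that senses phosphorylated eIF2. Eif2b5, the catalytic epsilon subunit gene, rose by 0.78 (SE 0.11; adjusted p = 0.000926, limma), from 8.63 and 8.64 to 9.36 and 9.46. Eif2b1, the alpha subunit gene, read 8.70 and 8.50 against 8.44 and 8.20 (-0.28, SE 0.14; adjusted p = 0.117, limma). Of the 4 measured subunit genes 3 were thus called higher, where 39.5% of all named genes were, and the normalized signals did not overlap in any of the 4, as in 88.7% of all named genes. None of the 3 was called in the values as deposited (adjusted p = 0.166 to 0.944, limma). Eif2b1 was called lower there (log2 change -1.15, adjusted p = 0.0338, limma).

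Sequences before the start sites were taken from RefSeq (GRCm38.p6), which held 28 of the 36 genes, for 4 motifs on both strands in the 250 bases upstream. The eIF2B promoters are shown because their genes rose together, apart from Eif2b1. Each run is 5′ to 3′ on the gene's strand and ends at the base before the start, with capitals marking ATTGG or its reverse complement, the inverted CCAAT box to which NF-Y binds. The intervals are chr12:85219231-85219480 on the plus strand for Eif2b2, chr5:31193140-31193389 on the minus strand for Eif2b4, chr16:20498567-20498816 on the plus strand for Eif2b5 and chr5:124579132-124579381 on the minus strand for Eif2b1.
Eif2b2: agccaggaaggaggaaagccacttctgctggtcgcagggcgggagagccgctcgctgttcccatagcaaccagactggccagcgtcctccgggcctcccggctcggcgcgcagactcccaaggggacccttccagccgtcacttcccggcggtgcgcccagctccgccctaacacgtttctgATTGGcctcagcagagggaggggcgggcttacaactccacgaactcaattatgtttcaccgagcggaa
Eif2b4: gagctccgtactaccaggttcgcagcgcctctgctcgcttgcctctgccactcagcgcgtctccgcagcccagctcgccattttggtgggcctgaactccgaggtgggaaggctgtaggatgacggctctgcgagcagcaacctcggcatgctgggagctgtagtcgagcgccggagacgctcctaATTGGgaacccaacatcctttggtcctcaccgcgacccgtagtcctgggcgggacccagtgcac
Eif2b5: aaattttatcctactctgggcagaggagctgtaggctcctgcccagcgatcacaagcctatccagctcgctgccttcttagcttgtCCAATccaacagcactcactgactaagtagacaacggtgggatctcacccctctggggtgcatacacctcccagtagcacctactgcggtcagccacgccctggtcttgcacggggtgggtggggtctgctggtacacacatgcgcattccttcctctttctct
Eif2b1: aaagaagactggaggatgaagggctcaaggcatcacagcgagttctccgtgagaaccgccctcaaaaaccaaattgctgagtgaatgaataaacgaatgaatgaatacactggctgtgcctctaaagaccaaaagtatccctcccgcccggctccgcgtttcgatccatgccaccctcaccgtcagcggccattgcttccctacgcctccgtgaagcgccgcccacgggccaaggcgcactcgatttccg

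The 3 promoters of genes that rose each held 1 match, starting at positions -68, -64 and -164 before the start of Eif2b2, Eif2b4 and Eif2b5, and that of Eif2b1 held none. The letters are common: 10 of 28 initiation factor genes had them (35.7%), as did 37.5% of 27025 genes in the table. They were present in 5 of 12 genes that rose, 1 of 9 that fell and 4 of 7 not called. The E-box CACGTG was present in 7 of the 28 genes (and in 6.86% of all genes), 4 of 12 that rose, 1 of 9 that fell and 2 of 7 not called. The ETS core CCGGAAG was present in 9 of the 28 (32.1%, against 7.83%), 4 of 12 that rose, 3 of 9 that fell and 2 of 7 not called. The CCAAT-enhancer and ATF element TGATGNAA was upstream of 0 of the 28 genes and in 3.91% of all. No matches of 2 different motifs overlapped in these promoters (0 found). These are letter matches, not binding sites, and the table of all genes includes noncoding ones.

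The eIF3 complex, the scaffold of the small subunit during scanning, had changes in both directions, as did all named genes. Of 11 measured subunit genes 4 rose (36.4%), 5 fell (45.5%) and 2 were not called with quantile normalization. Among all named genes 39.5% were called higher and 35.4% lower. Eif3e had the largest fall, from 12.51 and 12.49 to 11.04 and 11.07 (log2 change -1.45, SE 0.09; adjusted p = 8.38e-05, limma), with its 3 tested probe sets between -1.45 and -1.18. Eif3m read 10.44 and 10.41 against 8.99 and 9.04 (-1.41, SE 0.10; adjusted p = 0.0001, limma). Eif3a, the largest subunit and the backbone of the complex, read 12.79 and 12.93 against 11.65 and 11.69 (-1.19, SE 0.10; adjusted p = 0.000132, limma), and its 4 probe sets were all called lower. These 3 genes were separated between genotypes in the deposited signals as well, but array medians there were lower in Med1-/-, which favours falls. The brightest probe sets of Eif4e and Eif4g3, not called after normalization, were also separated there.

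Eif3b, which holds the peripheral module together, rose from 10.53 and 10.42 to 11.80 and 11.65 (log2 change 1.25, SE 0.10; adjusted p = 0.000143, limma). Eif3k rose from 10.48 and 10.44 to 11.43 and 11.45 (0.98, SE 0.09; adjusted p = 0.000201, limma). Eif3d, a subunit with cap-binding activity of its own, rose by 0.91 (SE 0.12) and Eif3f by 0.90 (SE 0.15). The genotypes overlapped in the deposited signals of Eif3f and Eif3k, but not in those of Eif3b and Eif3d.

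The small falls in eIF3 were the least secure on the brightest probe sets. All 4 Eif3c probe sets were called lower, with changes of -0.51, -0.39 and -1.05 on the less bright ones. Its brightest read 11.80 and 11.53 against 11.38 and 11.10 (log2 change -0.43, SE 0.14; adjusted p = 0.0311, limma). Its call was lost without Med1+/+ replicate 1 (adjusted p = 0.168) or Med1-/- replicate 2 (adjusted p = 0.155, limma), where the change was -0.29 and -0.28. Eif3h read 11.88 and 11.79 against 11.60 and 11.52 (-0.28, SE 0.09; adjusted p = 0.035, limma), and lost its call without any 1 of the 4 arrays (adjusted p = 0.0733 to 0.168). Eif3i (0.13, SE 0.09) and Eif3l (0.09, SE 0.11) were not called after quantile normalization. Both were called higher with medians equal (0.76 and 0.57) and with 75th percentiles equal (0.57 and 0.38).

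The mRNA-binding eIF4 group likewise had changes in both directions, with 2 genes higher, 3 lower and 3 not called of 8. Eif4e encodes the cap-binding protein. Its brightest probe set read 10.37 and 10.43 against 10.22 and 10.26 (log2 change -0.16, SE 0.10; adjusted p = 0.184, limma), whereas its other probe sets fell by 0.84 (adjusted p = 0.000585) and 0.96 (adjusted p = 0.00312, limma). Eif4e2, whose protein 4EHP binds caps without eIF4G and takes part in repression, rose from 10.13 and 10.08 to 11.14 and 11.28 (1.10, SE 0.10; adjusted p = 0.000195, limma), and 3 of 3 tested probe sets were called higher. Eif4e3 was under the filter, with deposited signals of 12.2 to 22.2.

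Eif4a1 and Eif4a2 encode closely related forms of the helicase eIF4A. Eif4a2 fell from 11.38 and 11.49 to 10.28 and 10.16 (log2 change -1.22, SE 0.10; adjusted p = 0.000148, limma). Eif4a1 read 12.98 and 12.84 against 12.49 and 12.33 (-0.50, SE 0.10; adjusted p = 0.0047, limma), a fall that turned to 0.15 with array medians equal. Eif4h, a helper of the helicase, rose from 12.22 and 12.38 to 13.17 and 13.52 (1.04, SE 0.14; adjusted p = 0.000712, limma), with 3 of 3 probe sets higher. Eif4b, another helper, had a change of 0.07 (SE 0.13) on its brightest probe set and 0.43 and 0.91 on the others, both of which were called.

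Of the eIF4G scaffold family, Eif4g2, also known as DAP5, fell from 12.97 and 13.20 to 12.56 and 12.50 (log2 change -0.56, SE 0.11; adjusted p = 0.00346, limma), and turned to 0.11 with medians equal. Its other tested probe sets changed by -1.05 and -0.85. Eif4g3 read 8.44 and 8.45 against 8.42 and 8.25 (-0.11, SE 0.12; adjusted p = 0.446, limma). Eif4g1 and Eif4a3 are not analysed here.

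Taking each gene by its brightest probe set, the repressors of eIF4E had the largest rise of any initiation factor gene. A less bright probe set of Eif2b2 rose more, by 2.46. Eif4ebp2 encodes a 4E-binding protein. Its deposited signals were 409.4 and 589.2 against 1147.8 and 1675.8, and its normalized log2 signal 8.58 and 8.63 against 10.83 and 10.82. The change was 2.22 (SE 0.10, n = 2 arrays per genotype; adjusted p = 7.26e-05, limma), a 4.66-fold difference. Its 3 tested probe sets were all called higher, by 1.17 to 2.22.

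Eif4ebp1, the classical mTOR substrate of this family, had deposited signals of 2510.5 and 3473.6 against 4802.5 and 6821.9. Its normalized log2 signal rose from 11.30 and 11.27 to 12.70 and 12.73 (log2 change 1.43, SE 0.09; adjusted p = 8.44e-05, limma), and 3 of 3 probe sets were higher, by 0.79 to 1.48. On their brightest probe sets, both genes were therefore higher on each Med1-/- array than on either Med1+/+ array in the deposited signals too. Deposited signals overlapped on the dimmest tested probe set of Eif4ebp1 (61.9 and 91.4 against 47.4 and 85.4). They also overlapped on a dimmer one of Eif4ebp2 (111.4 and 84.3 against 82.2 and 143.3). The remaining tested probe set of each gene was separated. Eif4enif1, whose protein 4E-T carries eIF4E into the nucleus and to processing bodies, read 9.51 and 9.29 against 9.31 and 9.35 (-0.07, SE 0.12; adjusted p = 0.633, limma).

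**Figure D3:**
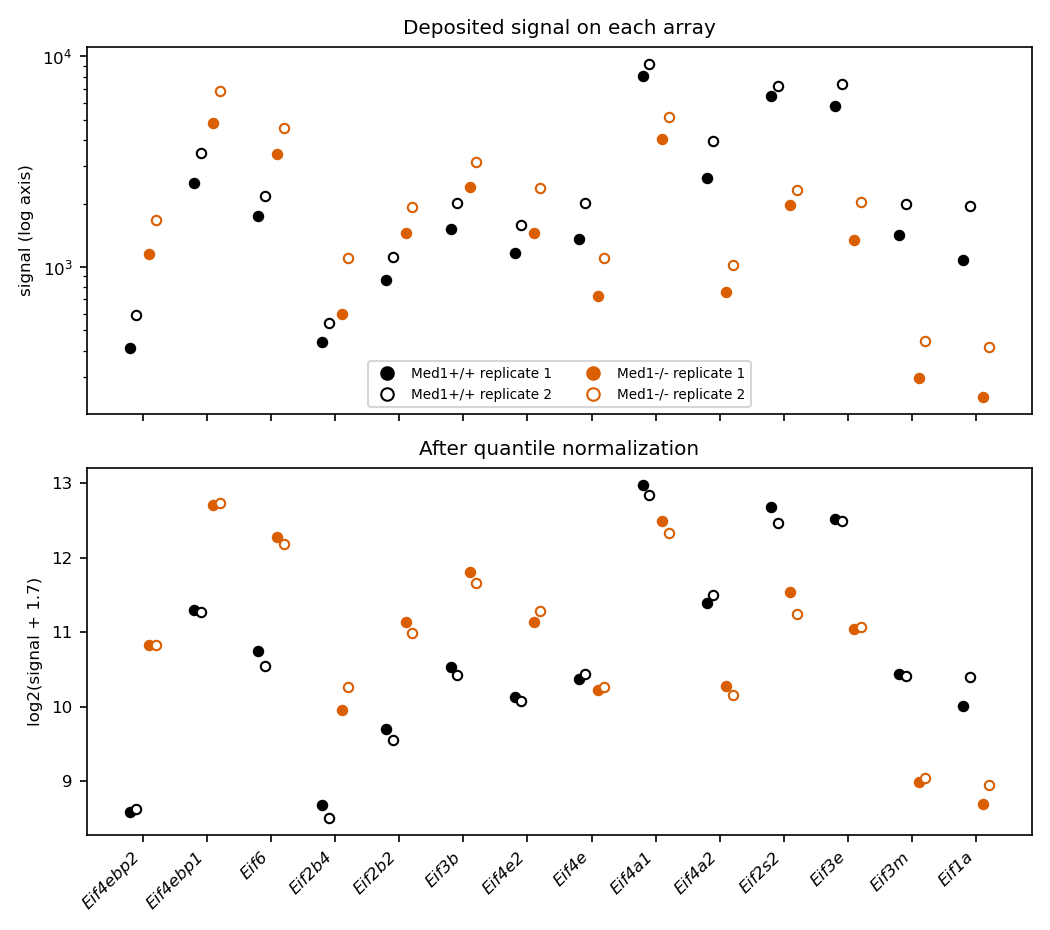
Signal of 14 initiation factor genes on each of the 4 arrays, as deposited (upper panel, log axis) and after quantile normalization as log2(signal + 1.7) (lower panel). Black points are Med1+/+ and orange points Med1-/- arrays, filled for replicate 1 and open for replicate 2; Eif4ebp2, Eif4ebp1 and Eif6 are higher on both Med1-/- arrays in both panels, and Eif2s2, Eif3e, Eif3m and Eif1a lower.

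The promoters of the repressor with the largest rise and of its target are shown as examples. A different motif is marked in each, so the marks are not a contrast between the genes. Eif4ebp2 (chr10:61452670-61452919, minus strand) is printed with its 1 match to the ETS core CCGGAAG, on the reverse strand at position -124, in capitals. Eif4e (chr3:138527018-138527267, plus strand) is printed with its 2 E-boxes, CACGTG, at positions -228 and -64, in capitals. The Eif4e sequence also holds 1 match to the inverted CCAAT box, not marked. Another Eif4e entry, farther upstream, held none of these motifs, and no promoter of Eif4ebp1 was in the table used here.
Eif4ebp2: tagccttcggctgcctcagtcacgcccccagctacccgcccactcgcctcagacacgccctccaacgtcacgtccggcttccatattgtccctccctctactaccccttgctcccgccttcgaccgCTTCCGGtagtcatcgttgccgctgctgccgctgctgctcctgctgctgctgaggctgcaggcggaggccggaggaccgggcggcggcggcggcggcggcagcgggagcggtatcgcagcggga
Eif4e: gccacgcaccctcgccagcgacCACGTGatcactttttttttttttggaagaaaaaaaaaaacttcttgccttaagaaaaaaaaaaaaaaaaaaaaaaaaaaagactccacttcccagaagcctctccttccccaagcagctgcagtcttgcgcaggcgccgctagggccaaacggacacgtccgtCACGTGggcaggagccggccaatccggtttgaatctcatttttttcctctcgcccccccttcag

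Ratios of genes within an array compare their changes. A constant scaling of an array cancels in them, but quantile normalization does not, so each change is also given for the values as deposited. Both genes were past the filter in 4 of the pairs considered. The log2 ratio of Eif4e to Eif4ebp1 was -0.94 and -0.83 with Med1 and -2.48 and -2.46 without it, a change of -1.59 (-1.83 as deposited). The ratio of Eif4e to Eif4e2 changed by -1.26 (-1.33 as deposited), from 0.24 and 0.35 to -0.91 and -1.01. That of Eif4a1 to Eif4a2 changed by 0.72 (0.96 as deposited), from 1.59 and 1.35 to 2.21 and 2.17. The genotypes did not overlap in these 3 pairs, nor for Eif4ebp1 over Eif4ebp2, which changed by -0.79 (-0.54 as deposited), from 2.72 and 2.64 to 1.88 and 1.90. For each of the 4 the two-sided exact permutation test gave p = 0.333, before and after Benjamini-Hochberg adjustment, the smallest that 2 arrays against 2 allow. With the next brightest probe sets the last pair turned to 0.32 (exact permutation p = 0.667) and the others kept their direction. Non-overlap of ratios was not counted for other gene pairs. Single genes did not overlap in 88.7% of all named genes, so non-overlap does not set these pairs apart.

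Of the genes that act at subunit joining and afterwards, 1 rose, 1 fell and 1 was not called. Eif6, which keeps the large subunit from joining too early and takes part in its assembly, had deposited signals of 1747.9 and 2164.0 against 3440.1 and 4585.4. Its normalized log2 signal rose from 10.74 and 10.54 to 12.27 and 12.19 (log2 change 1.58, SE 0.11; adjusted p = 9.52e-05, limma). Eif5b, the GTPase that joins the subunits, fell from 8.65 and 8.67 to 7.53 and 7.48 (-1.15, SE 0.12; adjusted p = 0.000278, limma), and its 3 probe sets were all called lower. These 2 genes changed in opposite directions, each without overlap between genotypes, as in 88.7% of all named genes.

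Eif5a, a factor now known mainly for elongation and the carrier of hypusine, read 13.22 and 13.62 against 13.71 and 13.68 (log2 change 0.27, SE 0.14; adjusted p = 0.115, limma), and was called higher without Med1+/+ replicate 2 (0.53; adjusted p = 0.0131, limma) and with medians equal (1.13). Its other probe set rose by 0.98 (adjusted p = 0.000234, limma).

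Where a gene had several probe sets, they changed in one direction. All tested probe sets changed in the same direction in 21 of 21 initiation factor genes, against 82.2% of 3052 named genes with over 1 tested probe set, and in 15 of the 21 all were called, against 49.9%. Probe sets called in opposite directions occurred in 0 of the 21 and in 3.15% of the 3052 (limma). Of the 35 genes 8 are represented by a probe set with an _s_at or _x_at identifier, which can match transcripts of other genes, among them Eif3e, Eif3m, Eif2b2, Eif4ebp1 and Eif4h.

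**Figure D4:**
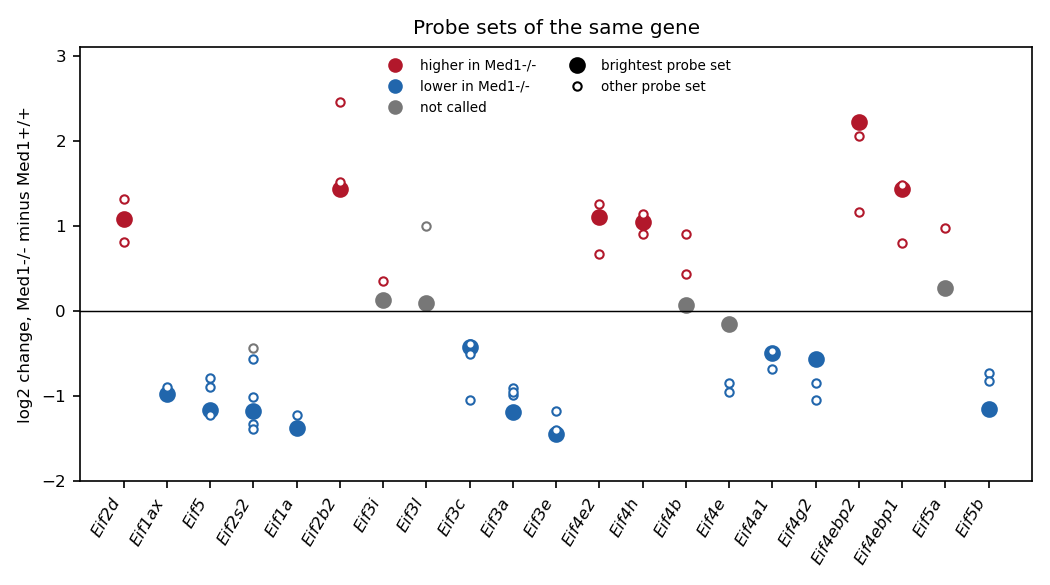
Log2 change (y axis) of every tested probe set of the 21 initiation factor genes with over 1; large filled points are the brightest probe set, small open points the others, colour the call. All probe sets of a gene lie on the same side of 0, while Eif4e, Eif4b, Eif5a and Eif3i have called probe sets beside an uncalled brightest one.

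The initiation factor genes that fell spanned more of the genome than those that rose. Median genomic length was 17.4 kb for the 13 that fell and 11.2 kb for the 14 that rose, and 31.3 kb and 15.3 kb for all named genes called lower and higher. This is a description of the annotation (GRCm38.p6), with no test.

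Other parts of the translation machinery moved in both directions, and the counts below stand beside 39.5% of all named genes called higher and 35.4% called lower. Of 13 elongation and termination genes past the filter 4 rose and 5 fell (median log2 change -0.22). Eefsec, which delivers selenocysteine tRNA, rose from 6.49 and 6.44 to 8.58 and 8.51, by 2.07 (SE 0.13; adjusted p = 8.79e-05, limma), and Tufm, the mitochondrial elongation factor gene, by 1.65 (SE 0.36), from 6.71 and 5.57 to 7.70 and 7.89. Abce1, which recycles ribosomes and binds initiation factors, fell from 10.91 and 11.05 to 9.33 and 9.22 (SE of the change 0.11; adjusted p = 8.69e-05, limma), and the release factor gene Etf1 by 0.91 (SE 0.12).

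Of 13 genes of the eIF2 kinases and their phosphatase and response 5 rose and 6 fell (median -0.33). The kinase genes themselves differed in direction. Eif2ak2, the interferon-induced double-stranded RNA sensor PKR, fell by 2.56 (SE 0.21; adjusted p = 0.000138, limma), from 8.37 and 8.18 to 5.97 and 5.46. Eif2ak1, the heme-regulated kinase, rose by 1.54 (SE 0.17; adjusted p = 0.000372, limma), from 6.02 and 5.79 to 7.45 and 7.43. Impact, an inhibitor of the amino acid sensing kinase GCN2, fell by 1.77 (SE 0.13), and its target GCN2, encoded by Eif2ak4, by 1.07 (SE 0.27; adjusted p = 0.0105, limma). Targets of the stress response differed too: Trib3 rose by 1.40 (SE 0.24) and Ddit3 fell by 1.53 (SE 0.12; adjusted p = 0.000119, limma). Eif2ak4 and Ddit3 were named after their values were seen.

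Of 13 genes that carry mTOR and MAP kinase signals to eIF4, 5 rose and 5 fell (median 0.45). Mknk2, a kinase of eIF4E, rose by 1.87 (SE 0.10; adjusted p = 7.26e-05, limma), from 9.52 and 9.64 to 11.42 and 11.49, and its relative Mknk1 by 1.05 (SE 0.17). Pdcd4, which blocks the helicase eIF4A, fell by 1.80 (SE 0.13; adjusted p = 0.000101, limma), from 8.69 and 8.77 to 6.87 and 6.99, and the kinase gene Rps6ka3 by 1.40 (SE 0.12).

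Of 14 other accessory factors 3 rose and 9 fell (median -0.89). The translational repressor gene Fmr1 fell by 1.66 (SE 0.10; adjusted p = 8.61e-05, limma), and Abce1, in this list too, is given above. The poly(A)-binding protein gene Pabpc4 rose by 1.02 (SE 0.10; adjusted p = 0.000226, limma) and Abcf1 by 0.38 (SE 0.10; adjusted p = 0.0117, limma), the latter turning to -0.35 in the values as deposited and losing its call without Med1+/+ replicate 1 (adjusted p = 0.0632) or Med1-/- replicate 2 (adjusted p = 0.0507). The rises of Tufm, Eif2ak1, Trib3, Mknk1 and Pabpc4 were not called in the values as deposited (adjusted p = 0.216 to 0.950, limma).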

How the data were processed

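Signal was measured on 4 arrays, 2 per genotype, grouped by the genotype in their titles. Labelling was with biotin, from total RNA (3' IVT Express Kit, Affymetrix), per the labels' protocols. The authors deposited 1 linear intensity per probe set and array; its summarisation, background correction and scaling were not given in the sources used here. Signal depth has no count here, and the number of arrays limits the precision.

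Control probe sets (64) were left out. Symbols came from the platform annotation, updated by Entrez identifier through RefSeq (GRCm38.p6): 20380 probe sets had 1 symbol, 691 several and 1555 none. The 22626 remaining probe sets were quantile normalized and taken as log2(intensity + 1.7), the 10th percentile of the table, so changes of dim genes are understated. A filter at the 40th percentile of mean signal removed 9050. The other 13576 were tested with limma (version 3.58.1, R version 4.3.3), using lmFit and a trended eBayes, two-sided, with Benjamini-Hochberg adjustment at 0.05 and 2 residual and 4.37 prior degrees of freedom. The procedure was tested on simulated data. A gene is represented by its brightest probe set. Members and lists were chosen with earlier results of these data known.

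Values in every array are given for up to 2 called genes with the largest rise and fall in each role, for genes of the listed pairs, and for genes with probe sets called in opposite directions; other members were added so that all are accounted for. Alternatives varied scaling, filter, pseudocount, probe set, variance model, replicate block, arrays and fold threshold. Figures used matplotlib 3.10.9.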

Additional observations from a re-analysis of the deposited data

How the results depend on the processing

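With values as deposited, 326 of all probe sets were higher, with 4 initiation factor probe sets and 3 genes, and the lists had 0 (eIF2 kinases), 1 (elongation), 1 (mTOR) and 0 (accessory) higher; Eif1b (-0.15), Eif2b5 (-0.051) and Abcf1 (-0.35) reversed. With medians equal Eif3c (0.071), Eif3h (0.28), Eif4a1 (0.15) and Eif4g2 (0.11) reversed, and with 75th percentiles equal Eif3h (0.089); under both 3 elongation genes were lower. The median of initiation factor genes was 0.55 with medians equal, 0.37 with 75th percentiles equal and -0.51 as deposited, and 0.33, 0.33 and 0.32 relative to the median of all probe sets, a different unit. Requiring 2-fold left 2670 higher and 2625 lower probe sets, 17 and 17 of initiation factors, and 9 and 8 genes. With 1 probe set per gene, 14 and 13 initiation factor probe sets were higher and lower, since fewer were tested. The next brightest probe sets turned Eif4ebp1 over Eif4ebp2 to 0.32. Leaving out 1 array each, the median ranged from -0.083 to 0.091 and relative to all probe sets from -0.14 to 0.084, while 14 to 15 genes were called higher, Eif5a among them without Med1+/+ replicate 2, and 11 to 12 lower. Same-numbered arrays deviated together with a correlation of 0.30, which with 2 pairs does not establish pairing; a replicate block called 15 genes higher and 14 lower, adding Eif2b1 and Eif5a, and ended no member gene's call. Apart from construction, the cause of these shifts was not tested. The filter, pseudocount and variance model reversed no initiation factor gene; without a filter or without the intensity trend Eif3c and Eif3h lost their calls. With dim signals, differences such as that of Eif4e3 were not detectable.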
